A study of Rattus norvegicus with 2 samples.

Results

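Vascular cells, the endothelial cells that line blood vessels and the mural cells that wrap them, were followed in cells of the rat zygomatic maxillary suture, the fibrous joint between cheek bone and upper jaw. A cell was placed on the endothelial side when its raw UMIs (unique molecular counts) of Cdh5, Emcn, Flt1 and Tek summed to at least 3, and on the mural side when those of Rgs5, Abcc9 and Notch3 summed to at least 5. The rule chose 59 of the 9220 cells kept in both libraries. The endothelial side held 41 cells, the mural side 16, and 2 cells met both rules and were set apart. These 7 genes chose the members, so their levels are given as a description.

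Both groups were rats aged 4 weeks, with 1 library each, so the number of animals behind a value is unknown and no test between the groups was possible. In the distraction group a W-shaped distractor of 0.4 mm nickel-titanium wire, set to an initial force of 20 g, pulled on the suture for 7 days. Both groups were anaesthetised with chloral hydrate and had the bones exposed. In the sham group the same holes were drilled and no distractor was placed. The labels name no strain or sex. After cells with under 500 UMIs, under 200 genes or 25% or more mitochondrial UMIs were removed, 4037 distraction cells and 5183 sham cells remained, with medians of 4161 and 3033 UMIs. The libraries shared 22 of 10240 cell indices, and 0 members were among them.

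Endothelial cells form the inner wall of every vessel. They hold together through the junction protein VE-cadherin (Cdh5), sense vascular endothelial growth factor through Kdr, Flt1 and Flt4, sense angiopoietins through the Tie receptors, and capture passing leukocytes with selectins. Mural cells, that is pericytes on capillaries and smooth muscle cells on larger vessels, share the basement membrane with the endothelium and are recruited by platelet-derived growth factor acting on Pdgfrb. In bone, vessels supply oxygen and also signals to the cells that build the matrix.

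The promoter windows of genes that mark each side are shown to let their sequences be compared: Emcn and Flt1 are rule genes of the endothelial side, Plvap was in 37 of its 41 cells without being used by the rule, and Rgs5 was in all 16 mural-side cells. The letters AGGAAG, a form of the site bound by ETS factors, the family of the endothelial regulators Erg and Fli1, are in capitals on either strand (CTTCCT on the other). Windows run from 250 bases before to 50 bases after the gene start and come from RefSeq, build GRCr8, matched by symbol. Of the 7 rule genes, 5 matched, and Cdh5 and Tek did not.

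Emcn (chr2:228564289-228564588, plus strand): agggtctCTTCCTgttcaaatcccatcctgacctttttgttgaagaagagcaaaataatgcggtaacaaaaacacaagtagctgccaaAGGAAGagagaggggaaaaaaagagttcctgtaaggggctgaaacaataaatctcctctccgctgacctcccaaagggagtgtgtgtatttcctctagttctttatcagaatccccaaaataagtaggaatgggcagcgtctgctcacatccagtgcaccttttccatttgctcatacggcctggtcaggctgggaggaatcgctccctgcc

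Flt1 (chr12:12333180-12333479, plus strand): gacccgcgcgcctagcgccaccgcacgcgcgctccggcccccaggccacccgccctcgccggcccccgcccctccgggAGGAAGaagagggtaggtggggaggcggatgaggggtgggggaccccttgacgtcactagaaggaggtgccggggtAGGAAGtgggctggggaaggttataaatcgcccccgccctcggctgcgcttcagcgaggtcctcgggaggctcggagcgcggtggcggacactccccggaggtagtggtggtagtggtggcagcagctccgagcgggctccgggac

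Plvap (chr16:18231230-18231529, minus strand): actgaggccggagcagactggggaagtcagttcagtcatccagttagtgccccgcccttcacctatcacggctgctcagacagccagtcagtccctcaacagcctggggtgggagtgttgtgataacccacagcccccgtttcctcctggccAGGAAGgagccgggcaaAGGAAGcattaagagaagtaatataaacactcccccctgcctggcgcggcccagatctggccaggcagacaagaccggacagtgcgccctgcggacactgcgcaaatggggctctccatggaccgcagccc

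Rgs5 (chr13:84380827-84381126, plus strand): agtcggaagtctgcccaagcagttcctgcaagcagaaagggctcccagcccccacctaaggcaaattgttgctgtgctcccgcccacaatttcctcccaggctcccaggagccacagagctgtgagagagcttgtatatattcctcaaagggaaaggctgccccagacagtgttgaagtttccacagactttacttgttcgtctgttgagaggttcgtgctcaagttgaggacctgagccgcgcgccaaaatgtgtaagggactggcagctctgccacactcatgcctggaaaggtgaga

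The Emcn, Flt1 and Plvap windows each held 2 matches, with no overlap, and the Rgs5 window held 0. Only AGGAAG and CTTCCT were searched, so 0 matches does not mean that a window lacks other forms of the ETS site. The motif stood in 34.5% of all 33469 windows of this length, so a match is a description and not a binding site.

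On the endothelial side the rule sum ranged from 3 to 87 UMIs with a median of 11.0 in the 25 distraction cells. In the 16 sham cells it ranged from 3 to 49 with a median of 16.5. Cdh5 was detected in 22 distraction and 15 sham cells, Flt1 in 21 and 15, Emcn, a sialomucin of capillaries and veins, in 20 and 13, and Tek, the angiopoietin receptor, in 12 and 6. Just inside the threshold, 2 distraction cells and 1 sham cell had a sum of 3, and just outside it 6 and 10 cells had a sum of 2. On the mural side the sum ranged from 17 to 41 UMIs with a median of 26.0 in the 7 distraction cells, and from 8 to 42 with a median of 19.0 in the 9 sham cells. Below the mural threshold, 1 sham cell had a sum of 4 and 2 distraction cells and 1 sham cell had a sum of 2. Just inside it, 1 sham cell had a mural sum of 5, and it is 1 of the 2 cells that met both rules.

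**Figure D1:**
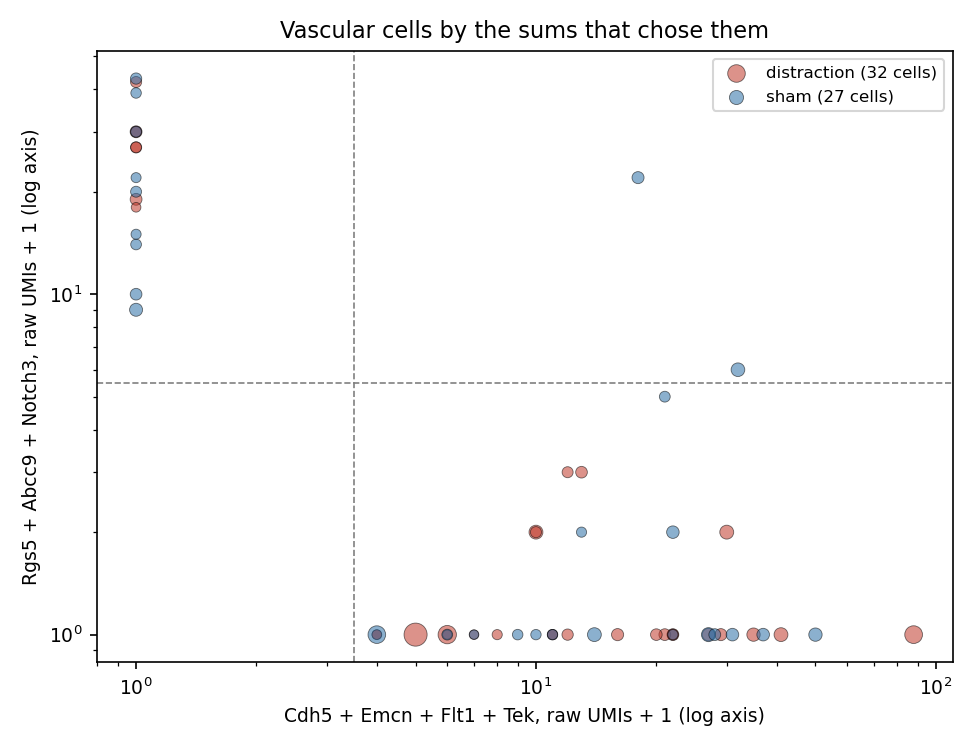
Each point is 1 vascular cell, placed by its raw UMIs of Cdh5, Emcn, Flt1 and Tek (x axis, UMIs + 1, log scale) and of Rgs5, Abcc9 and Notch3 (y axis, UMIs + 1, log scale), with larger points for deeper cells and dashed lines at the thresholds. The 41 endothelial-side cells lie low on the right, the 16 mural-side cells lie on the left at an endothelial sum of 0, and the 2 sham cells past both lines stand apart.

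Other genes not used by the rule were counted in the members. Of 11 endothelial markers outside the rule, at least 3 were detected in 24 of 25 distraction and 16 of 16 sham cells of the endothelial side. Of 9 mural markers outside the rule, at least 2 were detected in 6 of 7 distraction and 7 of 9 sham cells of the mural side. For comparison, 6 of 1286 distraction and 7 of 823 sham cells rich in neutrophil genes held any UMI of the 4 endothelial rule genes (0.467% and 0.851%, median depths 5216 and 4707 UMIs). The endothelial markers outside the rule were less specific, since 332 of these 1286 and 202 of these 823 cells (25.8% and 24.5%) held at least 1 UMI of them. Among stromal cells outside both rules (a sum of Dcn, Lum, Pdgfra and Col1a2 of at least 5 UMIs), 3 of 65 distraction and 3 of 42 sham cells held a UMI of the rule genes, and 43 and 18 held a UMI of the markers outside the rule. Non-members were counted at 1 UMI, not at 3 markers, and no count of the mural markers in them is given. The deepest distraction and sham cells of the endothelial side, described next, held 7 and 3 of the 11 markers. The marker counts thus describe the members and do not test the names.

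Cells are numbered from the deepest down within a side and library, and 4 members of the endothelial side held many counts of other cell types. The deepest distraction cell of the endothelial side held 62839 UMIs, with 1823 of the platelet chemokine Pf4 and 142 of Treml1, and entered through 4 UMIs of Tek. The second held 35711 UMIs, with 3039 of the neutrophil gene S100a8 and 15 of the leukocyte gene Ptprc, and entered through 5 UMIs of Flt1. The deepest sham cell held 32261 UMIs, with 4831 of Col1a1, 196 of Ibsp and 138 of Dmp1, bone matrix genes, and entered through 3 UMIs of Flt1. Distraction cell 5 held 13 UMIs of Lum, 11 of Ibsp and 30 of the chemokine Cxcl12 beside 7 of Flt1 and 1 of Cdh5. These 4 cells held 38.3% of the distraction and 21.2% of the sham UMIs of the endothelial side. Many results whose call, direction or size depended on them, but not all, are given without them as well, a choice made after seeing the data. Sham cell 3 also held 10 UMIs of Cd79b and 18 of Top2a beside 32 of Plvap, and sham cell 10 held 73 of S100a8. In all, 12 distraction and 8 sham cells of this side held a Ptprc UMI or at least 10 UMIs of 1 blood gene list, and no doublet caller was run.

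Endothelial-side cells made up 0.619% of kept distraction cells (25 of 4037, exact 95% binomial interval 0.401% to 0.913%) and 0.309% of kept sham cells (16 of 5183, 0.177% to 0.501%). The ratio was 2.01 with a counting interval of 1.03 to 4.02. Without the 4 cells above the ratio was 1.88 (0.934 to 3.90), and with every cell thinned to 2000 UMIs it was 2.07 (0.906 to 5.02, 18 of 3508 against 10 of 4036 cells, with 529 and 1147 shallower cells left out), so the interval took in 1. The stromal share was also higher in distraction, at 1.61% against 0.810% of kept cells. Measured over vascular and stromal cells alone, the endothelial share was 25.8% in distraction and 23.2% in sham, a ratio of 1.11 (0.571 to 2.23). The first pair of shares also depends on how many cells of other types each suspension held.

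The mural side held 7 distraction cells, a share of 0.173% (0.0697% to 0.357%). It held 9 sham cells, a share of 0.174% (0.0794% to 0.329%). The ratio was 0.999 with an interval of 0.316 to 3.01. The 2 cells that met both rules were sham cells, and 0 of 4037 distraction cells met both, which allows a share of up to 0.0743% when 3 counts are taken as the limit of a count of 0 (the exact binomial upper bound is 0.0913%). Intervals and limits cover counting error only. A 2-fold difference in either direction lies within the mural interval, so these numbers do not show that the shares were alike.

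The genes highest in endothelial-side over all non-member cells, taking the lower ratio of the 2 libraries, were led by Emcn and Cdh5 of the rule. They were followed by Adgrl4, an adhesion receptor of endothelium, Ecscr, RGD1310587, Mmrn2, Sele (E-selectin), Ptprb (the phosphatase VE-PTP), Sox17, Sox7, Cyyr1, Gpihbp1, which carries lipoprotein lipase on capillaries, and Tm4sf1. Adgrl4 gave 97 counts in 17 distraction cells and 59 in 13 sham cells, against 5 and 4 counts in all non-members. Ecscr gave 51 counts in 15 cells and 37 in 11, against 0 and 1. Since cells were picked by genes of the same type, this ranking describes the members and is no test.

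Among core endothelial genes, Kdr, Plvap, Egfl7, Mmrn2, Eng and Ptprb stood at similar summed levels in the libraries, while Tie1 was lower in distraction. Other endothelial genes were called higher or lower, as given below. Levels are given as CPM, the counts of a gene summed over the cells of 1 side and library and scaled to a total of 1e6 UMIs. Kdr, the main growth factor receptor, stood at 545 CPM in distraction and 565 CPM in sham, in 23 of 25 and 13 of 16 cells, a ratio of 0.965 (0.738 to 1.27). Plvap, which forms the diaphragms of fenestrae, stood at 1066 and 1254 CPM (ratio 0.850, 0.708 to 1.02) in 22 and 15 cells. Egfl7 stood at 221 and 223 CPM, Mmrn2 at 271 and 296, Eng, a co-receptor for bone morphogenetic proteins, at 314 and 394, and Ptprb at 154 and 190. Their intervals all took in 1, and the small differences of Egfl7, Mmrn2 and Ptprb turned sign without the 4 cells. Kdr, without the 4 cells, stood at 877 and 717 CPM (1.22, 0.937 to 1.61) and Plvap at 1722 and 1575 CPM (1.09, 0.910 to 1.32), so the sign of these small differences turned while the intervals still took in 1. Tie1 stood at 739 and 1005 CPM, a ratio of 0.735 (0.595 to 0.909), and without the 4 cells at 0.900 (0.728 to 1.12).

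A gene was called when its ratio reached 2-fold in either direction and its counting interval lay on 1 side of 1, among genes with at least 30 counts. Over all 2380 genes tested on the endothelial side, 11.1% were called higher in distraction and 8.49% lower, and the median gene had a log2 ratio of 0.03. Of 24 endothelial identity genes tested, 3 were called higher (Vwf, Calcrl, Myct1) and 2 lower (Podxl, Cldn5). Their median log2 ratio was -0.28. Without the 4 cells, 2 were higher and 1 lower with a median of -0.03. The list's share of calls is thus close to that of all genes.

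The highest ratios among the named endothelial-side genes were those of Selp and Vwf. Selp, P-selectin, which catches leukocytes and is stored with von Willebrand factor, gave 138 counts in 12 distraction cells and 4 in 2 sham cells. Distraction cell 3 held 59 of these, cell 6 34, the Pf4-rich cell 11 and cell 9 10, and the 2 sham cells held 3 and 1. At 461 against 26.3 CPM the ratio was 17.6 (6.70 to 65.3), and without the 4 cells 20.6 (7.86 to 76.9). Vwf, von Willebrand factor, gave 130 counts in 8 distraction cells and 5 in 2 sham cells. The Pf4-rich cell held 36, cells 3, 10 and 4 held 28, 27 and 21, and the sham cells held 3 and 2. At 434 against 32.8 CPM the ratio was 13.2 (5.53 to 41.4), and without the 4 cells 12.1. The median cell of both libraries held 0 UMIs of either gene, so the difference lay in a minority of distraction cells.

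At equal depth few cells kept either gene, and the thinned cells here and below include the 4 cells. Thinned to 2000 UMIs, 5 of 23 distraction cells and 1 of 15 sham cells kept a Selp UMI, and 6 and 1 kept a Vwf UMI. Of 5 leukocyte adhesion genes tested, 1 was called higher (Selp) and 0 lower. Sele stood at 271 and 164 CPM (ratio 1.65, 1.04 to 2.70), Icam1 at 632 and 427 CPM (1.48, 1.11 to 1.99), and Vcam1 at 96.9 and 59.1 CPM (1.64, 0.756 to 3.94). Sele, without the 4 cells, passed the call at 439 and 208 CPM (2.11, 1.33 to 3.44), and Icam1 stood at 975 and 542 CPM (1.80, 1.35 to 2.43). Without the members that held blood genes, Selp fell under the minimum count.

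Inflammatory genes were called higher in 6 of 12 tested on the endothelial side and lower in 0. Ccl2, which attracts monocytes, stood at 2400 CPM in distraction and 499 in sham, a ratio of 4.81 (3.79 to 6.17). Distraction cells 3, 4 and 10 held 263, 254 and 90 of its 718 counts, and 13 of 25 cells held any, against 6 of 16 sham cells with 31 at most. At equal depth the shares of cells with Ccl2 were close, at 6 of 23 and 4 of 15, with 72 and 13 UMIs in all, so the difference lay in the counts of a few cells. The Ccl2 ratio without the 4 cells was 5.97 (4.70 to 7.67). Cxcl10, an interferon-induced chemokine, stood at 662 and 243 CPM (2.72, 1.91 to 3.98), with 52, 48 and 40 counts in distraction cells 21, 6 and 9 and at most 19 in a sham cell. Il6 stood at 431 and 164 CPM (2.63, 1.70 to 4.21), with 104 of 129 distraction counts in cell 3 and 23 of 25 sham counts in cell 5, and without each library's highest cell it fell under the minimum count. Ccl7 had 80 counts in 3 distraction cells and 3 in 3 sham cells (13.6, 4.48 to 67.2). Cxcl2 and Ptgs2 were called as well, but distraction cell 5 held 595 of 933 and 13 of 36 of their counts. Without the 4 cells, Cxcl2 stood at 1689 and 1892 CPM and Ptgs2 fell under the minimum count, and 5 of 10 inflammatory genes tested were called higher.

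The same few distraction cells carried further named genes. Olr1, the receptor for oxidised lipoprotein, gave 200 counts in 8 cells, with 83 in cell 4, 66 in cell 3 and 22 in cell 10, against 14 in 1 sham cell (7.27, 4.23 to 13.5). Gfpt2, an enzyme of the hexosamine pathway, gave 68 counts, of which 29 and 25 lay in cells 3 and 4, against 5 (6.92, 2.83 to 22.0). Distraction cells 3, 4 and 10 thus held much Vwf, Ccl2 and Olr1 together, beside 68, 28 and 17 UMIs of Plvap. Hsph1, a heat shock protein, was spread more widely, at 508 and 85.4 CPM in 20 of 25 and 5 of 16 cells (5.95, 3.38 to 11.4). At equal depth 12 of 23 and 2 of 15 cells kept a Hsph1 UMI. Stromal cells differed in the same direction, at 1132 and 218 CPM, so the Hsph1 difference was not limited to endothelial-side cells. Angptl4, an inhibitor of lipoprotein lipase, Atp6v1a, a proton pump subunit, Mrps6, of the mitochondrial ribosome, and Gas6, a ligand of the TAM receptors, were 4.07 to 5.34 times higher, with 33 to 61 counts in distraction and 4 to 7 in sham. Without the 4 cells, Mrps6 and Gas6 fell under the minimum count. Distraction cell 5 alone held 16 of the 40 Gas6 counts.

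**Figure D2:**
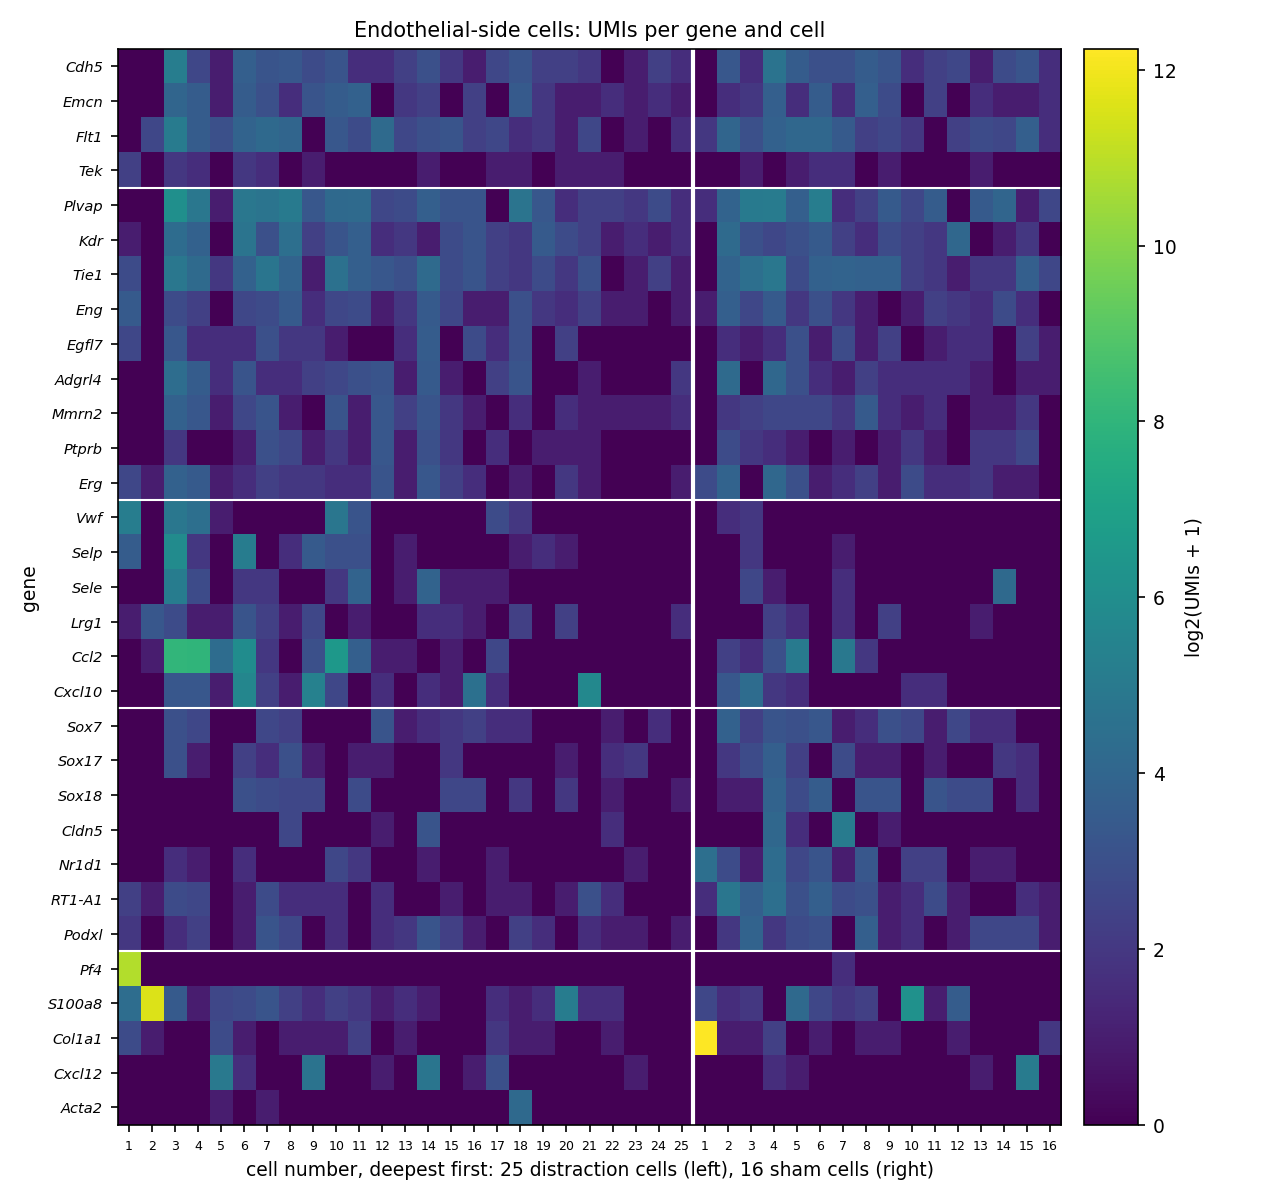
UMIs per gene (rows, in blocks of rule genes, other endothelial genes, adhesion and chemokine genes, genes lower in distraction, and genes of other cell types) and per endothelial-side cell (columns, deepest first, 25 distraction cells left and 16 sham cells right), coloured by log2(UMIs + 1). Vwf and Ccl2 are concentrated in a few distraction cells, Nr1d1 is in 12 of 16 sham and 8 of 25 distraction cells, and Pf4, S100a8 and Col1a1 single out 3 cells.

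Among the genes lower in distraction, Nr1d1, the clock repressor Rev-erb alpha, stood at 53.5 and 525 CPM in 8 and 12 cells, a ratio of 0.102 (0.0555 to 0.176) or 9.83-fold lower, and without the 4 cells 5.68-fold lower. At equal depth 2 of 23 distraction and 7 of 15 sham cells kept a Nr1d1 UMI. Among all non-members Nr1d1 stood at 23.1 and 25 CPM, and in stromal cells outside both rules at 327 and 409 CPM. Mural-side counts were 2, 0, 0, 0, 0, 1 and 1 in distraction and 0, 1, 0, 0, 7, 6, 2, 4 and 3 in sham. They were too few for the comparison, but the direction was not limited to the endothelial side.

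The SoxF transcription factors, which act in endothelial specification and arterial identity, were all called lower. Sox18 stood at 157 CPM in distraction and 466 in sham (2.97-fold lower, 2.02 to 4.39), Sox7 at 154 and 433 CPM (2.82-fold, 1.91 to 4.20) and Sox17 at 110 and 256 CPM (2.32-fold, 1.42 to 3.81). Sox18 was in 11 of 25 and 11 of 16 cells, Sox7 in 13 and 13, and Sox17 in 12 and 10. Without the 4 cells Sox18 and Sox7 remained called at 2.33 and 2.21-fold, and Sox17 at 1.82-fold did not. At equal depth the cells that kept a UMI were 8 of 23 and 9 of 15 for Sox18, 6 and 7 for Sox7, and 5 and 4 for Sox17. Sox17 then had 8 UMIs in distraction and 4 in sham, so it was not lower per cell at equal depth. The 4 cells were included there and held 0 UMIs of these 3 genes. Without the members that held blood genes, Sox7 lost its call and Sox17 and Sox18 had it. Erg, an ETS factor of endothelium, stood at 254 and 434 CPM (ratio 0.586, 0.416 to 0.828). Without the 4 cells the Erg difference was smaller and its interval took in 1. Of 9 endothelial transcription factors tested, 3 were lower and 2 higher, but the higher ones, Fli1 and Tal1, had 128 and 28 counts in the Pf4-rich cell and were not called without the 4 cells, when 0 of 8 tested were higher and 2 lower.

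RT1-A1, a class I histocompatibility gene, stood at 147 and 703 CPM, 4.78-fold lower (3.33 to 6.95), with up to 7 UMIs a cell in distraction and up to 27 in sham. At equal depth 9 of 23 and 9 of 15 cells kept a UMI. Non-members also differed, at 188 and 359 CPM, and the vascular difference cannot be told apart from a difference between animals in this polymorphic gene family. RT1 genes resemble each other, so reads may be split among them. Podxl, a sialomucin of the vessel lumen, stood at 181 and 427 CPM (2.36-fold lower) and at 276 and 542 CPM without the 4 cells, short of the call. Cldn5, a tight junction gene, gave 52 counts in 4 sham cells, 33 and 16 of them in cells 7 and 4, and 16 in 4 distraction cells. Mmd, Gcnt2, Abcg1, Isg15, Inhbb, Tead4 and the Wnt receptor Fzd4 were 3.75 to 6.66-fold lower, with 9 to 18 counts in distraction and 21 to 61 in sham. Mmd kept its call without the highest cell of each library, while the other 6 fell under the minimum count. Without the 4 cells, Gcnt2 fell under the minimum count as well.

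Growth factor and Notch genes gave few calls. Of 5 tested genes of the vascular endothelial growth factor system 0 were higher and 2 lower. Vegfa stood at 43.4 and 236 CPM, but the sham cell rich in Col1a1 held 28 of 36 counts. Flt4 stood at 83.6 and 171 CPM (2.04-fold lower, 1.13 to 3.69), with 12 of 26 sham counts in cell 7, and was not called without each library's highest cell. Nrp1, a co-receptor, stood at 190 and 243 CPM. Of 7 Notch genes 1 was called lower, Notch4, and its call was lost without the 4 cells. The ligand Dll4 stood at 127 and 78.8 CPM (1.61, 0.824 to 3.39), Notch1 at 187 and 190 CPM, and the target Hes1 at 939 and 749 CPM. Cxcr4, the receptor for Cxcl12 and a tip cell gene, stood at 204 and 887 CPM (4.35-fold lower, 3.19 to 5.99), with 76 and 28 of 135 sham counts in cells 2 and 3. Of its 61 distraction counts, 10 and 27 lay in the Pf4-rich and S100a8-rich cells, and without the 4 cells it stood at 130 and 1117 CPM, 8.59-fold lower. Sham cell 3, with 10 UMIs of Cd79b and 3 of Ptprc, is not 1 of the 4 cells, so its Cxcr4 counts remain in that value.

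Growth factor supply for mural cells and matrix genes were measured in the same cells. Pdgfb stood at 281 and 335 CPM (ratio 0.838, 0.585 to 1.21), and this small difference turned sign without the 4 cells. Pdgfa was lower, but 106 of 175 sham counts lay in the cell rich in Col1a1, and without the 4 cells it stood at 130 and 575 CPM, 4.43-fold lower. Of 9 basement membrane genes 0 were higher and 2 lower (Lamb1, Sparc). Sparc had 2918 sham counts in the Col1a1-rich cell, and without the 4 cells it stood at 12090 and 12867 CPM. Col4a1, a chain of type IV collagen, stood at 2012 and 3901 CPM in 24 and 16 cells (1.94-fold lower), just short of the call. The Pf4-rich and S100a8-rich distraction cells held 1 and 0 of its UMIs, and without the 4 cells the Col4a1 difference was smaller. Col18a1, the source of endostatin, stood at 455 and 250 CPM (1.82, 1.26 to 2.68), and passed the call without the 4 cells at 736 and 317 CPM (2.33, 1.61 to 3.43). Of the 9 basement membrane genes, 1 was called higher and 0 lower without the 4 cells.

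Response genes shared by many cell types gave few calls that held. Of 15 immediate early genes 0 were called in either direction, with a median log2 ratio of -0.19. Of 11 hypoxia and glycolysis genes 4 were higher and 1 lower, and without the 4 cells 1 of 8 was higher and 0 lower. Of 9 targets of transforming growth factor beta and bone morphogenetic proteins 0 were higher and 2 lower, and without the 4 cells 1 was higher and 1 lower. The lists of blood and bone cells moved with the 4 cells. All 7 neutrophil genes tested and all 3 platelet genes tested were higher, and 4 of 5 osteoblast genes lower. With those cells left out, 4 of 6 neutrophil genes were lower, and no platelet or osteoblast gene reached the minimum count. Sham cell 10 was kept there, with 288 UMIs of the neutrophil list, the most in any sham cell of this side. The direction of the neutrophil genes without sham cell 10 is not given. The part of these cell types in the other results was not tested beyond the values given without the 4 cells.

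Marker genes of vessel types differed in how often they were seen. A list of capillary and sinusoid genes summed to a median of 22.0 UMIs a cell in distraction and 24.0 in sham, and a list of arterial genes to 4.0 and 7.0. At least 5 UMIs of Gja4, Gja5, Sox17, Bmx, Dll4, Sema3g and Efnb2 together were in 7 of 25 distraction and 12 of 16 sham cells, and at least 1 UMI in 20 and 14. Stab1 and Stab2, of sinusoidal endothelium, gave 1 or 2 UMIs in 3 distraction cells and 1 sham cell. Prox1, the lymphatic regulator, gave 1 UMI in all 41 endothelial-side cells, in distraction cell 5. Prox1, Lyve1 or Flt4, which blood endothelium can also express, was seen in 13 distraction and 10 sham cells. Gja4 reached 8 and 6 UMIs in sham cells 5 and 10 and 1 in each of 3 distraction cells. Fabp4, a fatty acid binding protein of capillaries, stood at 812 and 532 CPM, with 143 UMIs in distraction cell 3 and 77 in sham cell 7. Mki67 or Top2a was seen in 5 distraction and 2 sham cells, and at 5 or more UMIs in 1 of each, the S100a8-rich cell and sham cell 3.

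The genes highest in mural-side cells over non-members were Rgs5 and Abcc9 of the rule, then Adamts4, a proteoglycan protease, Olfml2a, the connexin gene Gja4, Adamts15, Agtr1a, an angiotensin receptor, Npy1r, a neuropeptide Y receptor, Rgs4, Col4a1, Serpine2, Cygb, Procr, Foxc1 and RGD1564664. Adamts4 gave 340 counts in 7 distraction cells and 292 in 8 sham cells, against 137 and 61 in all non-members. Rgs5 ranged from 9 to 20 UMIs in the distraction cells and from 2 to 15 in the sham cells. Abcc9, a subunit of a potassium channel, ranged from 6 to 21 and from 0 to 29. Notch3 reached 3 and 2 UMIs, with a median of 1 in both.

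Contractile genes were low in most mural-side cells. At least 3 UMIs of Acta2, Tagln and Myh11 together were found in 2 of 7 distraction and 4 of 9 sham cells. Tagln gave 33 counts in distraction, 29 of them in cell 2, which also held 9 of Acta2, and 18 in sham, 10 of them in cell 6. Pdgfrb, the receptor that recruits mural cells, gave 16 counts in 6 of 7 distraction cells and 40 in 9 of 9 sham cells, at 372 and 720 CPM, with 17 in sham cell 1, and was not called. Mcam stood at 466 and 468 CPM. Rgs4 was called higher (861 and 396 CPM, 2.18, 1.25 to 3.87), but 24 of 37 distraction counts lay in cell 4, and without sham cell 1 of this side it was not called.

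Sham cell 1 of the mural side stood apart from the other 8. It held 12665 UMIs, only 2 of Rgs5 and 5 of Abcc9, with 140 of Cxcl12, 22 of Lepr, 51 of Grem1 and 34 of Vcam1, genes known from marrow stromal cells near vessels. It alone held 70 of 70 sham Ctgf counts, 114 of 120 Cyr61 counts and 81 of 81 Gas6 counts. Many mural results that depended on it, but not all, are given without it as well, a choice made after seeing the data. Lepr was listed in no other mural-side cell, and Cxcl12 in distraction cell 2 with 9 UMIs.

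Of 533 genes tested on the mural side, 9.19% were called higher in distraction and 11.3% lower, and the median gene had a log2 ratio of 0.07. Among the higher genes, Hmox1, which breaks down haem, stood at 7960 CPM in distraction and 1692 in sham, a ratio of 4.71 (3.73 to 5.98). Its counts were 126, 130, 48, 3, 3, 31 and 1 in the 7 distraction cells, and 21, 3, 9, 38, 5, 4, 11, 3 and 0 in the 9 sham cells. The highest 3 distraction cells lay above all sham cells and the others overlapped with them. Il6 had 46, 36, 117, 35, 3, 6 and 0 counts in distraction and 32, 12, 18, 16, 20, 0, 0, 4 and 0 in sham, at 5656 and 1836 CPM (3.08, 2.44 to 3.92). The mural Il6 level was above the 431 and 164 CPM of the endothelial side in both libraries. Hspb1, a small heat shock protein, had 79, 16, 65, 17, 5, 17 and 9 counts in distraction and 0, 0, 41, 8, 2, 10, 6, 5 and 8 in sham (3.36, 2.59 to 4.41). Stromal cells also differed, at 1262 and 231 CPM, so the Hspb1 difference was not limited to mural cells.

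Dcn, the proteoglycan decorin of fibroblasts, gave 34 counts in 4 distraction cells (12, 4, 13 and 5) and 7 in 2 sham cells (6 and 1), a ratio of 6.28 (2.74 to 16.8). Of 4 fibroblast genes tested 1 was higher (Dcn) and 0 lower, and without sham cell 1 3 were higher. A sum of Dcn, Lum, Pdgfra and Col1a2 of at least 5 UMIs was found in 5 of 7 distraction and 2 of 9 sham cells. Col3a1, a fibrillar collagen, stood at 5679 and 3222 CPM (1.76-fold), in 7 of 7 and 9 of 9 cells. The 7 distraction cells held 9 to 20 UMIs of Rgs5, and the 2 sham cells with that sum, cells 1 and 2, held 2 and 6. No doublet check was made. Lamb1, a laminin chain of the basement membrane, was in 7 of 7 distraction cells with 1 to 7 UMIs and in 5 of 9 sham cells with up to 4 (3.06, 1.46 to 6.86). Stromal cells differed in the same direction, at 113 and 31.6 CPM of Lamb1. The other higher genes were Ddit4 and Dnajb4, of stress responses, Crispld2, Myc and Hnrnph1, at ratios of 2.93 to 7.50.

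Among genes lower in distraction, S1pr3, a receptor for sphingosine 1-phosphate, had 2, 1, 2, 1, 0, 0 and 0 counts in distraction and 20, 37, 4, 0, 2, 6, 2, 0 and 5 in sham. At 140 and 1368 CPM it was 9.79-fold lower (4.30 to 27.5). Angptl4 had 15 counts in distraction with at most 6 a cell, and 131 in sham, where 7 of 9 cells held 6 to 39, and was 6.75-fold lower (3.95 to 12.4). Ptgs2, the inducible cyclooxygenase, gave 13 counts in 2 distraction cells and 86 in 7 sham cells (5.12-fold lower, 2.84 to 9.99). Ccl2 stood at 1862 and 6299 CPM (3.38-fold lower, 2.65 to 4.37), and distraction cell 1 held 71 of 80 counts. Id3, an inhibitor of differentiation induced by bone morphogenetic proteins, stood at 698 and 2700 CPM (3.87-fold lower, 2.60 to 5.93), with 0 to 6 UMIs a cell in distraction and 1 to 47 in sham. Cyp1b1, a cytochrome P450, had 0 counts in distraction and 48 in 4 sham cells, at least 12.4-fold lower when 3 counts are taken as the limit that 0 counts allow over the 7 cells. In stromal cells outside both rules all of these genes but Ccl2 and Ptgs2 were also lower in distraction. Angptl4 stood there at 59.9 and 301 CPM, S1pr3 at 36.6 and 131 CPM and Cyp1b1 at 46.6 and 274 CPM. Id3 stood there at 408 and 651 CPM, a smaller difference. The direction of these genes was thus not limited to mural-side cells. Ccl2 and Ptgs2 were not lower in stromal cells, at 2319 and 1312 CPM and at 875 and 719 CPM. The remaining named genes, Azin1, Alkbh5, Sdc4 and Zfp36l2, were 3.59 to 4.95-fold lower. Without sham cell 1, 19 of these 20 named mural genes kept their call, and Cyp1b1 fell under the minimum count.

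**Figure D3:**
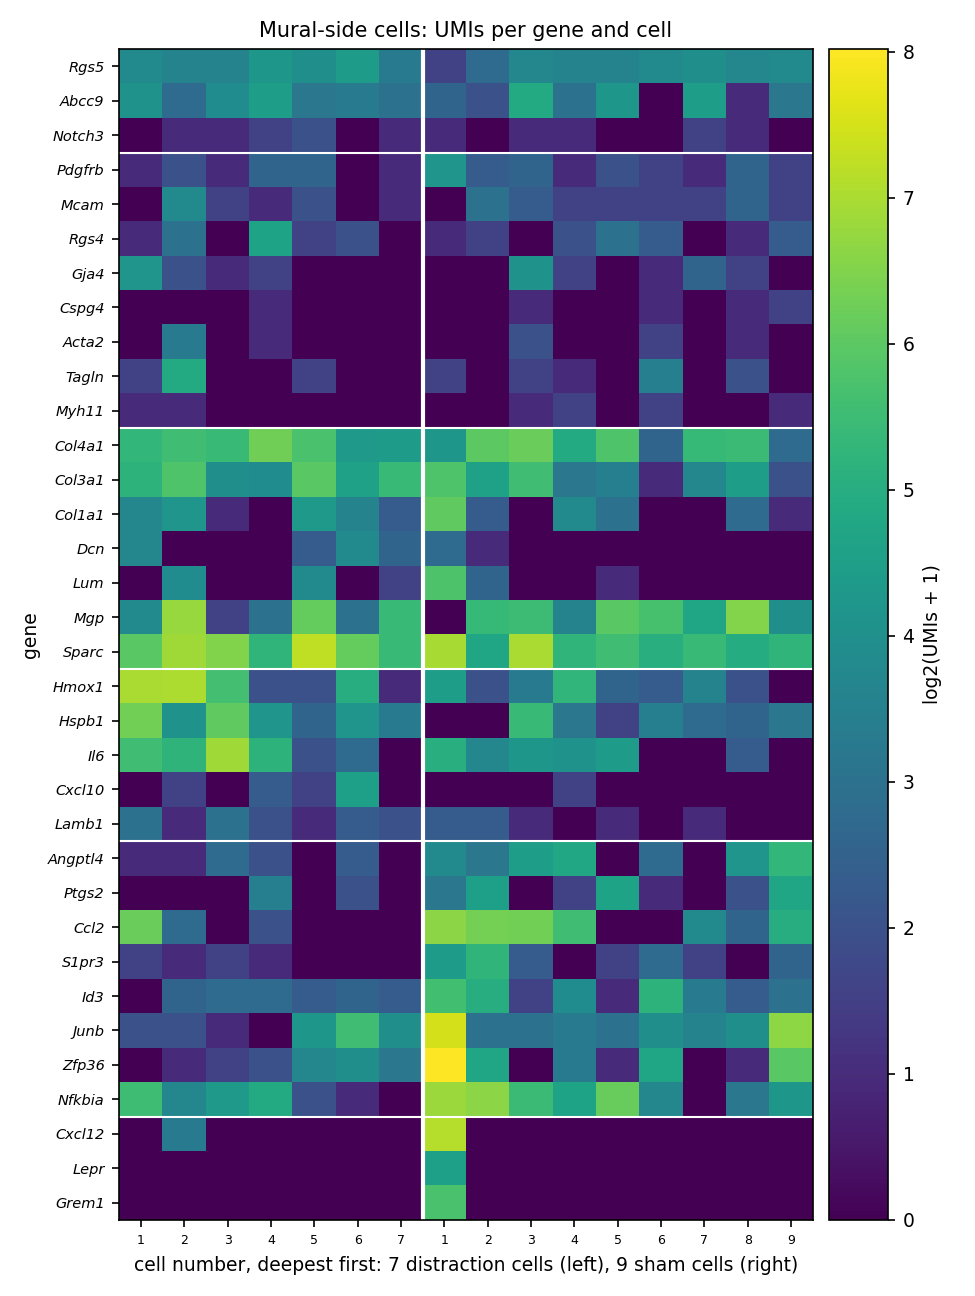
UMIs per gene (rows, in blocks of rule genes, other mural genes, matrix genes, genes higher and genes lower in distraction, and marrow stromal genes) and per mural-side cell (columns, deepest first, 7 distraction cells left and 9 sham cells right), coloured by log2(UMIs + 1). Hmox1 reaches 130 UMIs in distraction cells, Angptl4 and Ptgs2 are higher in sham cells, and Cxcl12, Lepr and Grem1 mark sham cell 1.

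Gene lists on the mural side differed with sham cell 1. Of 15 immediate early genes tested, 1 was called higher (Klf6) and 5 lower (Zfp36, Junb, Fosb, Ier2 and Btg2). Sham cell 1 held 258 of 382 sham counts of Zfp36 and 181 of 352 of Junb, and without it 2 of 15 were higher and 1, Zfp36, lower. Of 8 inflammatory genes, 2 were higher (Il6, Cxcl10) and 4 lower (Ccl2, Ptgs2, Nfkbia, Vcam1), and without that cell 2 of 7 were higher and 3 lower. Cxcl10 had 22 counts in distraction cell 6 and at most 4 in any other distraction cell. It fell under the minimum count without each library's highest cell and without members that held blood genes. Cxcl1, which attracts neutrophils, stood at 8635 and 14740 CPM (1.71-fold lower) and was not called. Of 6 basement membrane genes 1 was higher (Lamb1), while Col4a1 stood at 6796 and 5957 CPM. Of 3 transforming growth factor beta and bone morphogenetic protein targets tested, 3 were lower, of which Id3 alone remained tested and called without sham cell 1.

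**Figure D4:**
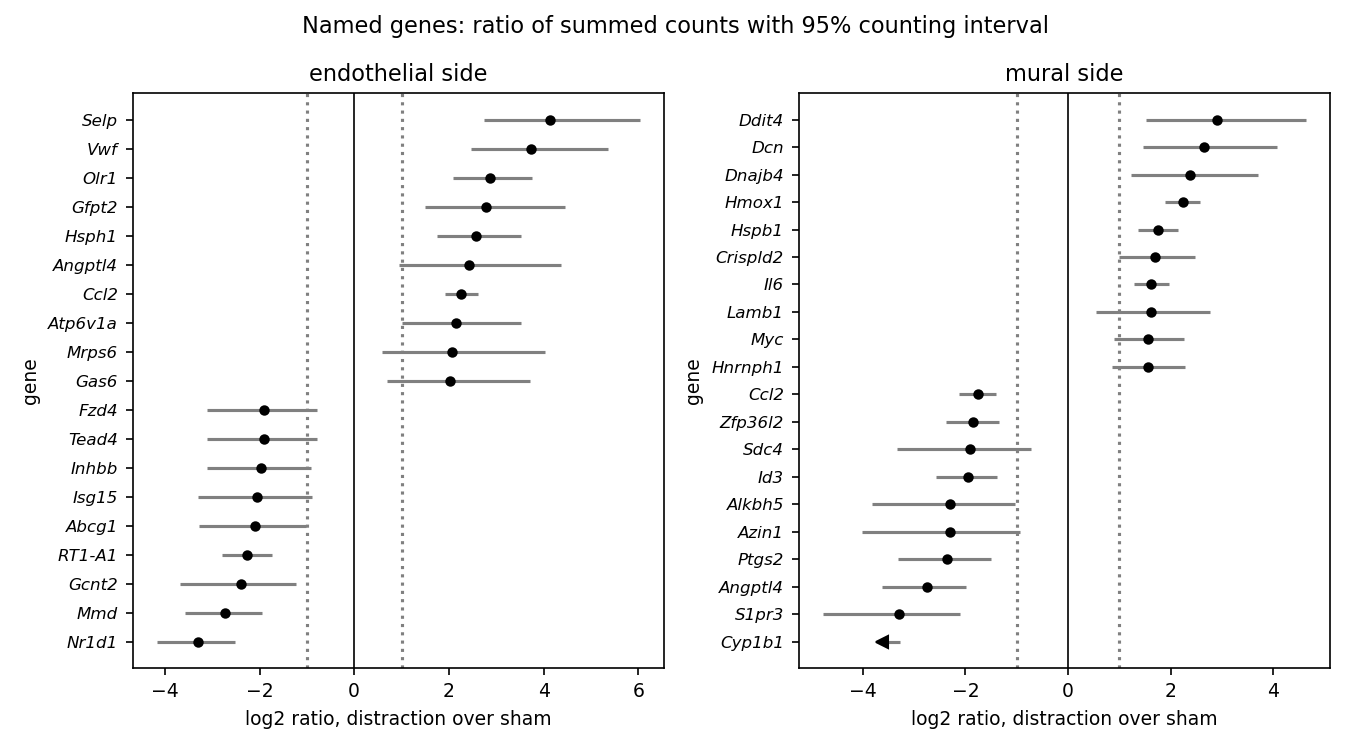
Ratio of distraction over sham of the named genes on each side (10 higher in distraction on both, and 9 lower on the endothelial and 10 on the mural side; log2 scale, dots), with 95% counting intervals (bars), dotted lines at 2-fold and an arrowhead for Cyp1b1, whose fold is a bound. Angptl4 and Ccl2 lie to the right on the endothelial side and to the left on the mural side.

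The 2 sham cells that met both rules differed from each other. The deeper one held 15009 UMIs with 12 of Cdh5, 13 of Flt1, 46 of Plvap and 16 of Gja4, against 2 of Rgs5 and 3 of Abcc9. The other held 9271 UMIs with 7 of Cdh5 and 8 of Flt1 beside 10 of Rgs5, 11 of Abcc9, 10 of Rgs4, 56 of Mgp and 10 of Col3a1. The first held few mural counts, while the second held the rule genes of both sides at similar levels. Whether 2 cells shared a well was not tested.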

How the data were processed

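Single cells of distracted and sham-operated rat sutures were profiled with BD Rhapsody, 1 library per group. The authors deposited raw UMI counts for every gene in every cell. Per the file headers, they come from version 1.5.1 of the BD WTA Rhapsody pipeline. The submitters' processing notes name Rnor_6.0 and Seurat 3.6, with no role. The aligner, the annotation and the rule for calling cells are unstated there. No doublet caller was run, and free RNA was not removed.

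The libraries held 4889 and 5351 cells and 32078960 and 29924342 UMIs. The report's cutoffs and member rule were applied with Python 3.11.15, numpy 2.4.6 and scipy 1.17.1. Counts were summed per side and library, scaled to CPM, and compared as a ratio with an exact conditional binomial 95% interval. Shares have exact Clopper-Pearson intervals. Both cover counting error only, since 1 library a group leaves no replicate spread. The 7 rule genes were left out of the tests of fold. The comparison was also run on simulated counts that had no spread between cells. That run cannot show whether calls hold where a few cells carry most counts.

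The members and gene lists were chosen with earlier results of these data known. On each side up to 10 highest and 10 lowest genes were named by log2 ratio with a pseudocount of 1 CPM. They had a UMI in at least 25% of cells of the higher library, under 50% of its counts in 1 cell and at least the non-members' CPM, and mitochondrial, ribosomal, haemoglobin and immunoglobulin genes were left out. The 15 genes highest over non-members and list members were also named, and other genes, and single cells, were chosen after their values were seen. Alternatives changed the cell filter, thresholds, scaling, minimum count, pseudocount or the cells kept. Pecam1 was not analysed here. Of the named genes, 1 on the endothelial side is not reported here.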

Additional observations from a re-analysis of the deposited data

Results flagged for a closer look

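6 named genes were called in opposite directions on the endothelial and mural sides. Among genes that were not named, Akap12, Klhl21, LOC684871, Lgals3 and Lpl also had opposite calls. Over all genes tested, 11.1% were called higher and 8.49% lower on the endothelial side, and 9.19% and 11.3% on the mural side. No share over the genes tested on both sides is given. Whether more genes had opposite calls than unrelated calls on each side would give was not tested. The number of opposite calls is thus a description. The values below are log2 ratios of distraction over sham on the endothelial side minus those on the mural side. With 1 library a group, the difference was not tested for any of them.

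Ccl2 differed by 4.02, at 2400 and 499 CPM in distraction and sham endothelial-side cells against 1862 and 6299 CPM in mural-side cells. Angptl4 differed by 5.17, at 140 and 26.3 CPM against 349 and 2358 CPM. Its endothelial ratio was reversed without members that held blood genes. Ptgs2 differed by 4.96, with an endothelial ratio of 6.11 (counting interval 1.93 to 31.0, 36 and 3 counts), and distraction cell 5, which holds stromal genes, gave 13 of the 36 counts and 20 of the 38 Cyp1b1 counts. Gas6 differed by 7.99, but all 81 sham counts on the mural side lay in the cell rich in Cxcl12 and Lepr, and the distraction cells held 1. Cyp1b1 differed by 7.90 as a bound, since the distraction mural cells held 0 counts, and its endothelial ratio of 19.3 (3.27 to 784) rests on 38 and 1 counts. Lamb1 differed in the other direction, by -2.68, at 154 and 322 CPM on the endothelial side and 605 and 198 CPM on the mural side. Without the 4 endothelial-side members with genes of other cell types, Ccl2 and Angptl4 kept their endothelial call, Lamb1 lost it at 1.64-fold lower, and Ptgs2, Gas6 and Cyp1b1 fell under the minimum count.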

How the results depend on the processing

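No paired analysis was possible because each group has 1 library. On the endothelial side 263 genes were called higher. That count was 114 with stricter member thresholds, 43 without members that held blood genes, 75 without the 4 members with genes of other cell types, 118 without the deepest member of each library, 128 at a minimum of 60 counts and 93 without the highest cell of each gene. The 202 called lower became 363 with looser thresholds, 63 without blood-holding members, 104 without the 4, 396 at a minimum of 10 counts, 90 at 60 and 100 without the highest cell. On the mural side 49 higher became 114, 19 and 20, and 60 lower became 141, 37 and 31, at a minimum of 10 counts, at 60 and without the highest cell. Fewer cells or a higher minimum also leave fewer genes tested.

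3 named endothelial-side genes reversed: Gfpt2 to a log2 ratio of -0.49 with looser thresholds, Angptl4 to -1.04 without blood-holding members, and Inhbb to 0.0233 with every cell weighted equally. The cause was not tested. Of 20 named genes on the endothelial side, 17 kept their call without the 4 members and 12 without the highest cell. At a minimum of 60 counts 11 kept it, and without blood-holding members 9 did. On the mural side 12 of 20 kept it without the highest cell and 12 at a minimum of 60 counts. Without the deepest member 16 mural-side genes kept it, and without blood-holding members 16. The endothelial share ratio lay between 1.59 and 2.09 in the alternatives run, and its interval took in 1 in all but that without sham mural cell 1, which leaves it as it was. The 2 alternatives that leave out the 4 members or sham mural cell 1 were chosen after seeing the data. With 7 to 25 cells a side and library, counts in 1 cell can set a ratio.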
